A study of Drosophila melanogaster with 6 samples.

Results

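Programmed cell death in *Drosophila* turns on a short pathway, and its genes are described here in embryos with and without maternal *Raf* function. The 9 genes are the Diap1 antagonists *rpr*, *hid*, *grim* and *skl*, the inhibitor *Diap1*, the caspase genes *Dronc* and *Drice*, the adaptor gene *Dark* and *p53*. They were chosen by name, for their place in the pathway, among 17714 genes in the tables, with earlier results of these data known. All 9 were found and passed the filter on low counts. RNA was measured in 3 samples of *Raf926* embryos and 3 samples of WT embryos, all mixed-stage collections of whole embryos. The *Raf926* embryos came from germline clones that lack maternal *Raf* function, made on an FRT19A chromosome marked with *w* by recombination against *ovoD2*, and the methods describe crosses to FM6 males, so that zygotic *Raf* from the father could be present in part of the embryos. The sample records call their genotype Raf926-/-. The WT strain was Oregon R, so the genotypes also differ in strain background. The sample records give egg laying for 24 h at 25 °C, while the methods of the study give a shorter collection at a lower temperature, and this was not settled here.

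In living cells the protein Diap1 binds caspases and holds them inactive. The proteins Rpr, Hid, Grim and Skl bind Diap1 and release the caspases. Dronc, the initiator caspase, is activated on a scaffold of Dark and then cleaves effector caspases such as Drice. The antagonist genes are switched on in cells that will die, *p53* can activate some of them after DNA damage, and Hid is restrained by Ras/MAPK signaling, both in the transcription of its gene and by phosphorylation of the protein. *Diap1*, *Dronc*, *Drice* and *Dark* mRNAs are supplied by the mother as well as made by the embryo.

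The total of expected counts, the read counts per gene that RSEM estimates, was between 33275401 and 37426014 in *Raf926* samples and between 34774771 and 38120428 in WT samples. The scaling factors were between 0.931 and 0.937 in *Raf926* samples and between 1.03 and 1.11 in WT samples, and mitochondrial rRNA took 8.03% to 9.47% of the counts in *Raf926* samples and 6.11% to 7.29% in WT samples. *Raf* itself had 1202, 1399 and 1546 normalized counts in *Raf926* replicates 1 to 3, against 2538, 2935 and 2184 in WT replicates 1 to 3, and was called lower (log2 fold change −0.88). The paper reports that the mutation shifts the reading frame to an early stop. It could not detect mRNA of the allele, which it gives as likely due to nonsense-mediated decay. It also found *Raf* lower, which it anticipated for embryos without maternal *Raf*. Counts per gene do not tell alleles apart, so the count of *Raf* does not by itself check the genotype. Embryo contents differed between the genotypes. The summed normalized counts of 4 neuronal markers (*elav*, *nSyb*, *Syt1* and *brp*) were 3334 to 4051 in *Raf926* samples and 16827 to 20932 in WT samples, and all 4 were called lower. All 5 muscle markers were called lower, at a sum of 334 to 11527 in *Raf926* samples, the highest of which was replicate 2, and 72748 to 137060 in WT samples. Without that replicate the calls among the 9 cell death genes were the same apart from that of *p53*, given with its values. Of 6 maternal transcripts listed, 5 were matched, and these 5 were all called higher. Their sums were 15035 to 20998 in *Raf926* samples and 3126 to 6857 in WT samples. The lowest sum was that of WT replicate 3. Without WT replicate 3 the calls among the 9 cell death genes were the same, with log2 fold changes of 0.61 for *Drice* and 0.49 for *p53*. The remaining maternal transcript, *nos*, did not match a single identifier and was left out. The 4 epidermal genes were also called higher, with sums of 86358 to 116730 in *Raf926* samples and 13549 to 22176 in WT samples. Of 4 glial markers 2 were called lower and none higher, and of 5 hemocyte markers 3 were called lower and 2 higher. The part of embryo contents in the results below was not tested. In whole embryos of mixed stages, fewer cells expressing a gene, less RNA per cell and a different mix of ages cannot be told apart. The eggshell genes *Cp36* and *Cp38* had at most 4 counts in any sample. Of the yolk protein genes listed with them, *Yp1* and *Yp2* were under the filter, with at most 10 and 7 expected counts. *Yp3* had 16 to 27 expected counts in *Raf926* samples and 35 to 65 in WT samples, and was called lower (log2 fold change −1.21).

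Of the 9 cell death genes, 5 were called different between the genotypes. The initiator caspase gene *Dronc*, the effector caspase gene *Drice* and the antagonist gene *skl* were higher in *Raf926* embryos. *Diap1* and *Dark* were lower. The antagonists *rpr*, *hid* and *grim* and the gene *p53* were not called. A call needed an adjusted p under 0.1 (edgeR's quasi-likelihood test, Benjamini-Hochberg adjustment over all 11568 genes tested) and a fold change over 1.5. By this rule 49.7% of all genes tested were called, 22.7% higher and 26.9% lower, so a share of 5 in 9 lies close to that of all genes and is no result about these genes. For 6 of the 9 genes every replicate of 1 genotype lay above every replicate of the other, which held for 68.5% of all genes. The median log2 fold change was 0.36 over the 9 genes and −0.04 over all genes tested. With 3 samples against 3, an exact permutation test on any gene has 0.1 as its smallest two-sided p, and the replicates are described by the study as biological.

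**Figure D1:**
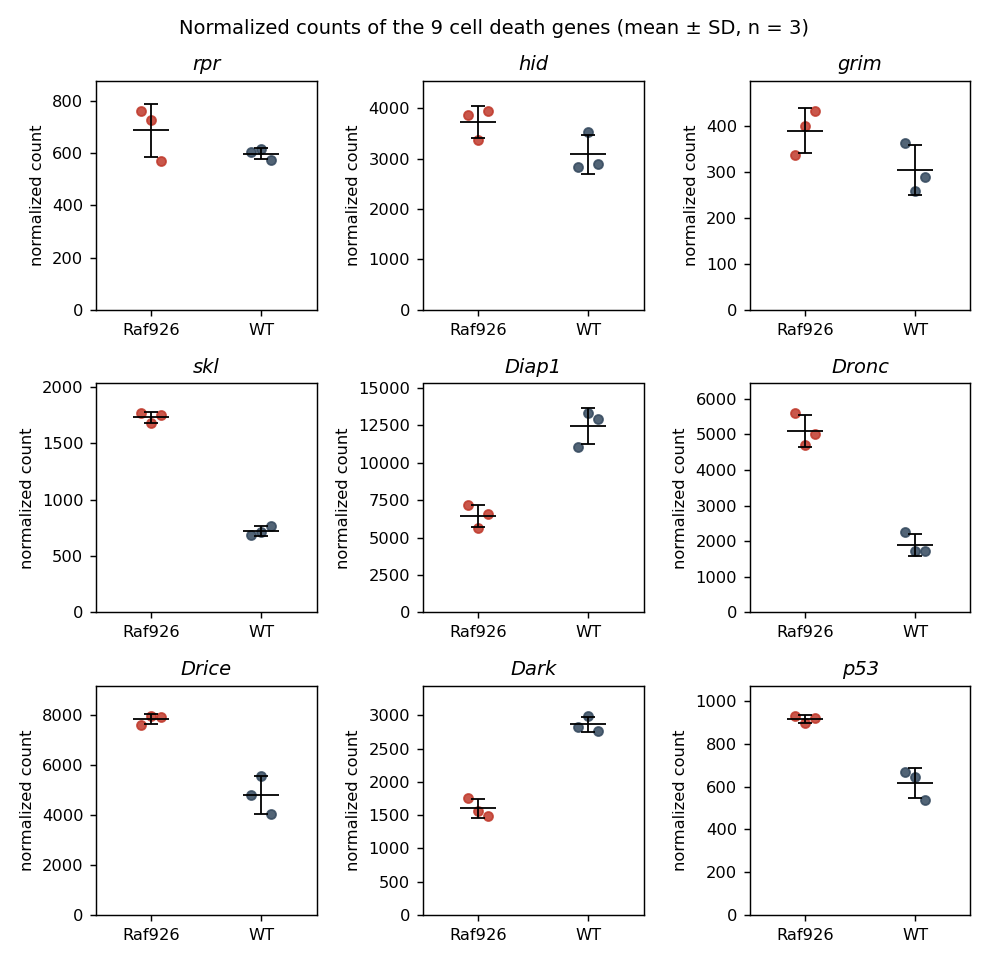
Normalized counts of each of the 9 genes (expected counts divided by TMM-scaled library sizes and brought to a common depth), with a point per sample, *Raf926* left and WT right; the horizontal bar and whiskers are the mean and SD of 3 samples, and each vertical axis starts at 0. The *Raf926* points lie clear above the WT points for *skl*, *Dronc*, *Drice* and *p53* and clear below them for *Diap1* and *Dark*, while those of *rpr*, *hid* and *grim* overlap.

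The 4 antagonist genes lie within 272.2 kb of chromosome 3L, all on the minus strand (BDGP6.54 annotation). Each encodes a protein whose N terminus binds Diap1. *hid* lies at chr3L:18167745-18185641, followed by *grim* (chr3L:18302719-18304417), *rpr* (chr3L:18397535-18398435) and *skl* (chr3L:18438561-18439942). The annotation places 13 other genes of the tables between the outer ends of *hid* and *skl*. Of these, 10 were under the mean of 10 counts and 3 were tested. *CG7320*, named here after its values were seen, was the only called gene of those 3, higher by 2.97 ± 0.37 (SE) on the log2 scale, at a mean of 44.5 expected counts.

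*skl*, which encodes the antagonist Sickle, was 2.40-fold higher in *Raf926* embryos. Replicates 1 to 3 of *Raf926* held 1765, 1677 and 1747 normalized counts of *skl*, against 684, 709 and 770.1 in those of WT. The replicates of each genotype lay within a narrow band and the genotypes were far apart. The means were 1730 ± 46.4 in *Raf926* embryos and 721 ± 44.3 in WT embryos (SD, n = 3 each), which gave a log2 fold change of 1.26 ± 0.11 (SE) and an adjusted p of 0.00011 in edgeR's quasi-likelihood test. Leaving out any single sample kept it between 1.20 and 1.32.

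*hid*, whose product is the antagonist restrained by MAPK signaling, was at 3857, 3358 and 3944 normalized counts in the *Raf926* replicates, against 2829, 3529 and 2884 in the WT replicates. The genotypes overlapped, since WT replicate 2 was above *Raf926* replicate 2. The means were 3720 ± 316 in *Raf926* embryos and 3080.5 ± 389.5 in WT embryos (SD, n = 3 each). On the log2 scale this difference was 0.27 ± 0.12 (SE), with a 95% interval of −0.01 to 0.55, equal to a fold change of 0.994 to 1.47. Its adjusted p was 0.086 from edgeR's quasi-likelihood test, under 0.1 as for 66.7% of all genes, but the change did not reach 1.5-fold. When single samples were left out, the adjusted p of the same test lay between 0.041 and 0.22, and with library size alone as the scale the log2 fold change was 0.08 (adjusted p = 0.55). Library size alone shifted the median of all genes by −0.20. Relative to the median of all genes, *hid* was at 0.32 under both TMM and library size scaling. The files list 2 *hid* transcripts, and the mean transcript length that RSEM gave was 4018 bases in all 6 samples, the annotated length of hid-RA.

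Genes that respond to EGFR/MAPK signaling are set beside *hid*. Of 6 such genes, 4 were called lower (*sty*, *aos*, *pnt* and *aop*) and none higher, against 26.9% of all genes called lower, and the median log2 fold change of the 6 was −1.56. The other two, *kek1*, which encodes an EGFR inhibitor, and *vn*, which encodes an EGFR ligand, were not called and had log2 fold changes of 0.58 (adjusted p = 0.13) and 0.30 (adjusted p = 0.15, edgeR's quasi-likelihood test for both). *sty*, which encodes the feedback inhibitor Sprouty, was at 436, 356 and 337 normalized counts in the *Raf926* replicates and at 4131, 4896 and 5030 in the WT replicates, which is −3.64 ± 0.15 (SE) on the log2 scale (adjusted p = 9.0e-06, edgeR's quasi-likelihood test). *aos*, the gene of the EGFR inhibitor Argos, had a log2 fold change of −2.52, *pnt*, the ETS activator gene, of −2.34, and *aop*, the ETS repressor gene, of −0.77. Without *Raf926* replicate 3 or without WT replicate 3, 1 gene of the list was called higher. The difference between the change of *hid* and that of these genes was not tested.

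*rpr*, which encodes Reaper, was at 762, 729 and 572 normalized counts in the *Raf926* replicates, against 604, 616 and 575 in the WT replicates. *Raf926* replicate 3 was below all WT replicates and the other two were above them. On the log2 scale the difference was 0.20 (95% interval −0.17 to 0.57), a fold change of 0.887 to 1.49, with an adjusted p of 0.31 (edgeR's quasi-likelihood test). *grim* was the least abundant gene of the 9, at 337, 399 and 432 normalized counts in the *Raf926* replicates, against 363, 259 and 289 in the WT replicates. The genotypes overlapped, as *Raf926* replicate 1 was below WT replicate 1. Its log2 fold change was 0.36 (95% interval −0.12 to 0.83), which leaves room for a fold change of up to 1.78, and its adjusted p was 0.17 (edgeR's quasi-likelihood test). A noncoding gene, *asRNA:CR45974*, lies within *grim* on the opposite strand and held 37.4 to 105 expected counts per sample, up to 31.7% of those of *grim*. The counting is not described as using strand, so reads of *grim* and of this gene cannot be told apart with certainty. The 3 genes with the profile most like that of *hid* over the 6 samples were *Tgi*, *CG4789* and *CG4455*, at Euclidean distances of 0.122, 0.124 and 0.129 on centred log2 normalized counts, of 9075 genes compared.

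*Diap1*, the inhibitor of apoptosis at chr3L:16038410-16051034, was at 51.8% of its WT level in *Raf926* embryos. The 3 *Raf926* samples held 7141, 5633 and 6543 normalized counts, and the 3 WT samples 11065, 13284 and 12935. No *Raf926* sample came near the lowest WT sample. The means were 6439 ± 759 in *Raf926* embryos and 12428 ± 1193 in WT embryos (SD, n = 3 each). This is −0.95 ± 0.12 (SE) on the log2 scale, with a 95% interval of −1.23 to −0.67 and an adjusted p of 0.00050 (edgeR's quasi-likelihood test). Leaving out any single sample kept it between −1.05 and −0.83. The files list 6 *Diap1* transcripts. Their mean length weighted by abundance was 1987 ± 1.71 bases in *Raf926* embryos and 1973 ± 8.02 bases in WT embryos (SD, n = 3 each), a difference of 14.1 bases with no overlap between genotypes (exact permutation test, two-sided, p = 0.1). For genes with several transcripts, no overlap in this length between the genotypes was seen in 38.8% of 6225. The noncoding genes on the opposite strand within *Diap1* held at most 22 expected counts.

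*Dronc*, the initiator caspase gene at chr3L:9968479-9971002, had the largest fold change of the 9 genes. The *Raf926* samples held 5589, 4715 and 4996 normalized counts of *Dronc*, while the WT samples held 2252, 1711 and 1737. Every *Raf926* sample was above every WT sample by a wide margin. The means were 5099.8 ± 446 in *Raf926* embryos and 1900.0 ± 305 in WT embryos (SD, n = 3 each), a 2.68-fold difference or 1.42 ± 0.14 (SE) on the log2 scale (adjusted p = 0.00015, edgeR's quasi-likelihood test). It lay between 1.31 and 1.54 when single samples were left out.

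*Drice*, the main effector caspase gene (chr3R:29799658-29801584), was more abundant than *Dronc* and changed less. In the *Raf926* samples it had 7613, 7986 and 7936 normalized counts, and in the WT samples 4806, 5555 and 4045. The *Raf926* samples were all above the WT samples, which spread more widely. *Drice* was 1.63-fold higher in *Raf926* embryos, near the 1.5-fold limit of a call, with a log2 fold change of 0.71 ± 0.12 (SE), a 95% interval of 0.42 to 1.00 and an adjusted p of 0.0020 (edgeR's quasi-likelihood test). The log2 value was 0.52 with library size alone and 0.55 with upper-quartile scaling, both under that limit. Relative to the median of all genes it was 0.75, 0.76 and 0.76 under TMM, library size and upper-quartile scaling. Library size alone shifted the median of all genes by −0.20 and upper-quartile scaling by −0.16.

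*Dark*, the gene of the scaffold on which Dronc is activated (chr2R:17020027-17026703), was lower where *Dronc* was higher. It had 1753, 1561 and 1488 normalized counts in the *Raf926* samples, against 2826, 2993 and 2771 in the WT samples. The genotypes were well separated. The means were 1601 ± 137 in *Raf926* embryos and 2863 ± 115 in WT embryos (SD, n = 3 each), and the level in *Raf926* embryos was 55.9% of that in WT embryos (−0.84 ± 0.10 (SE) on the log2 scale, adjusted p = 0.00041, edgeR's quasi-likelihood test). The antisense gene *asRNA:CR44390* overlaps *Dark* and held 51.5 to 54.2 expected counts in *Raf926* samples and 91.1 to 144.6 in WT samples, at most 4.35% of those of *Dark*.

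*p53* (chr3R:23049657-23054082), the gene of the transcription factor that responds to DNA damage, lay just short of a call. The *Raf926* samples had 931, 896 and 919.7 normalized counts of *p53*, against 667, 646 and 538 in the WT samples. The *Raf926* samples were all above the WT samples. The difference was 1.48-fold, with a log2 value of 0.57 ± 0.14 (SE), a 95% interval of 0.24 to 0.90 and an adjusted p of 0.0099 (edgeR's quasi-likelihood test). Without *Raf926* replicate 2 it was 0.62, and without WT replicate 1 it was 0.61, both past the 1.5-fold limit. The tables list 4 *p53* transcripts, and their mean length weighted by abundance was 1513, 1517 and 1529 bases in *Raf926* replicates and 1581, 1599 and 1593 bases in WT replicates. All *Raf926* samples were below all WT samples, with a mean difference of −71.2 bases (exact permutation test, two-sided, p = 0.1, the smallest possible). Such a lack of overlap was seen in 38.8% of the genes with several transcripts. The annotated lengths are 1577 bases for p53-RA, 1870 for p53-RB, 2095 for p53-RC and 1324 for p53-RE. The antisense gene *asRNA:CR46089*, which overlaps *p53*, held 133 to 166 expected counts in *Raf926* samples and 40.8 to 61.5 in WT samples, up to 20.7% of those of *p53* and higher in *Raf926* samples as *p53* was. *Gr94a*, also on the opposite strand, held 46 to 63 in *Raf926* samples and 43 to 59 in WT samples, up to 8.90%. Their part in the values of *p53* was not tested.

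**Figure D2:**
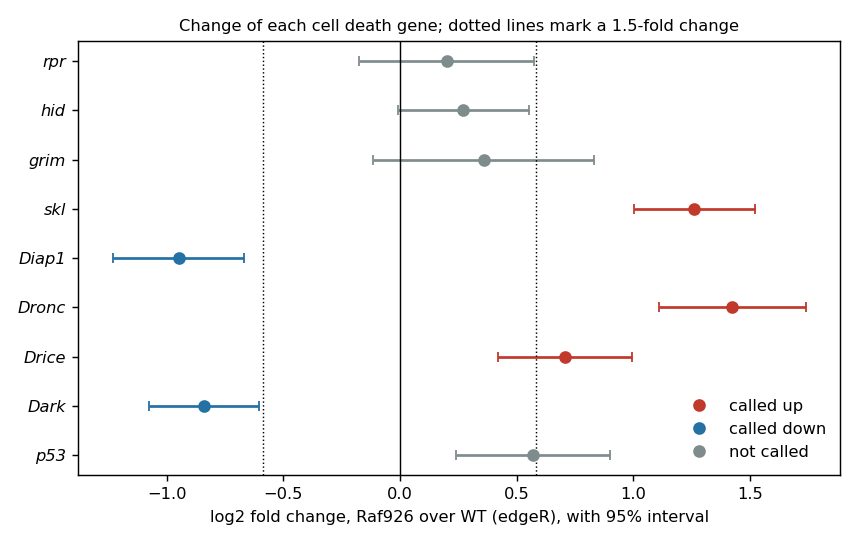
The log2 fold change of each gene, *Raf926* over WT, from edgeR's quasi-likelihood fit, with its 95% interval; colors mark the called genes and dotted lines a fold change of 1.5. The intervals of *skl*, *Dronc*, *Diap1* and *Dark* lie wholly beyond the dotted lines, those of *Drice* and *p53* cross the upper line, and those of *rpr*, *hid* and *grim* include 0.

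TPM, the deposited values scaled for both transcript length and depth, place the genes on a common scale. In *Raf926* embryos *Drice* was the most abundant (124 ± 3.81 TPM), ahead of *Diap1* (97.9 ± 11.0) and *Dronc* (76.3 ± 6.70), all as SD over 3 samples. In WT embryos *Diap1* was the most abundant (231 ± 27.3 TPM), ahead of *Drice* (91.06 ± 10.1) and *Dronc* (34.3 ± 5.19). *skl* was the fourth gene in *Raf926* embryos, at 40.5 ± 0.855 TPM, and the sixth in WT embryos, at 20.5 ± 2.29. *rpr* and *hid* had 28.2 ± 4.57 and 26.0 ± 1.85 TPM in *Raf926* embryos and 29.7 ± 0.577 and 26.0 ± 2.53 TPM in WT embryos. On this scale, which carries no TMM factor, the mean of *hid* was 26.0 in both genotypes and that of *rpr* was lower in *Raf926* embryos. In normalized counts the means of both genes were higher in *Raf926* embryos. *p53*, *Dark* and *grim* followed at 19.1 ± 0.472, 9.22 ± 0.869 and 7.10 ± 0.820 TPM in *Raf926* embryos. In WT embryos *Dark* (19.9 ± 0.526 TPM) stood above *p53* (14.7 ± 1.07), with *grim* again last (6.70 ± 1.17). Among neighbors in these orders, the ranges over samples overlapped for *rpr* and *hid* in *Raf926* embryos, and for *Dronc* and *rpr* and for *skl* and *Dark* in WT embryos, and these pairs cannot be ordered.

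**Figure D3:**
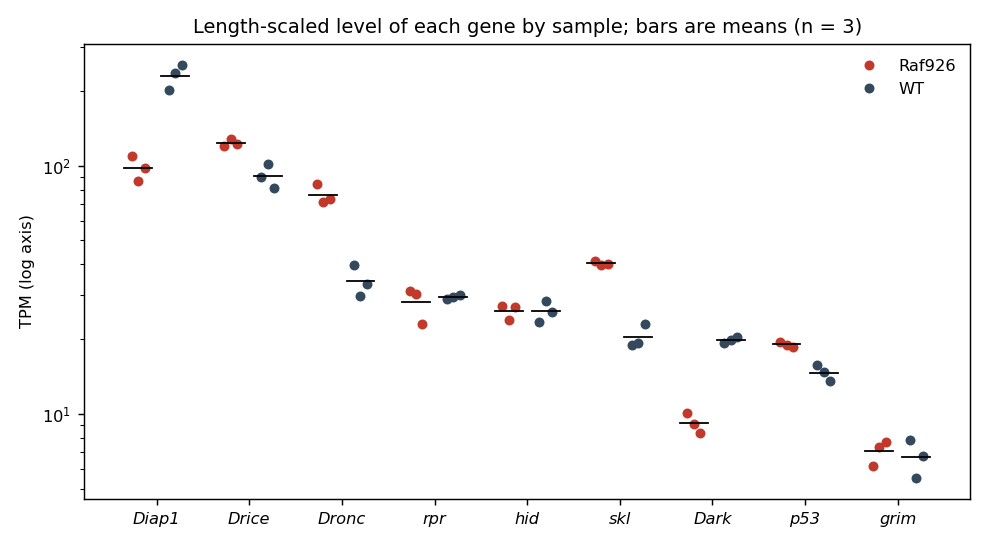
TPM of each gene on a log axis, with the genes ordered by their WT mean, a point per sample, *Raf926* left and WT right within each gene, and bars at the means of 3 samples. *Diap1* stands below *Drice* in *Raf926* embryos (97.9 and 124 TPM) and above it in WT embryos (231 and 91.06 TPM).

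A ratio of TPM within a sample does not depend on how samples are scaled to each other. The summed TPM of *rpr*, *hid*, *grim* and *skl* was 106, 101.5 and 97.7 in *Raf926* replicates and 79.3, 83.2 and 85.8 in WT replicates. Divided by the TPM of *Diap1* it was 0.971, 1.17 and 1.00 in *Raf926* replicates and 0.394, 0.353 and 0.336 in WT replicates. Antagonist and inhibitor transcripts were thus near parity in each *Raf926* sample, while *Diap1* outnumbered the antagonists in each WT sample. Both are totals of whole embryos, and whether they were present in the same cells was not measured. The ratio was 2.89-fold higher in *Raf926* embryos (log2 difference 1.53, between 1.45 and 1.60 when single samples were left out). The antagonist sum alone was 1.23-fold higher, while *Diap1* was at 97.9 TPM in *Raf926* embryos and 231 TPM in WT embryos. Within the sum, *skl* was at 40.5 TPM in *Raf926* embryos and 20.5 TPM in WT embryos. The means of *rpr* (28.2 and 29.7 TPM), *hid* (26.0 in both) and *grim* (7.10 and 6.70) differed little between *Raf926* and WT embryos. Of the antagonist sum, *skl* made up 39.8% ± 1.03 in *Raf926* embryos and 24.7% ± 1.94 in WT embryos (SD, n = 3 each), while *rpr* made up 27.6% ± 3.61 in *Raf926* embryos and 35.8% ± 0.724 in WT embryos. The share of *hid* was 25.6% ± 2.07 in *Raf926* embryos and 31.3% ± 2.61 in WT embryos.

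Further ratios were chosen after the values of the genes had been seen and are given as a description. The ratio of *Dronc* to *Diap1* was 0.770, 0.823 and 0.752 in *Raf926* replicates and 0.199, 0.126 and 0.130 in WT replicates. Every *Raf926* sample was above every WT sample, by 5.26-fold on average. The ratio of *Drice* to *Diap1* was 1.28 ± 0.183 in *Raf926* embryos and 0.399 ± 0.0692 in WT embryos (SD, n = 3 each). *Dark* transcripts were 0.121 ± 0.00629 per *Dronc* transcript in *Raf926* embryos and 0.589 ± 0.0950 in WT embryos (SD, n = 3 each). The adaptor and the caspase it activates thus moved in opposite directions.

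**Figure D4:**
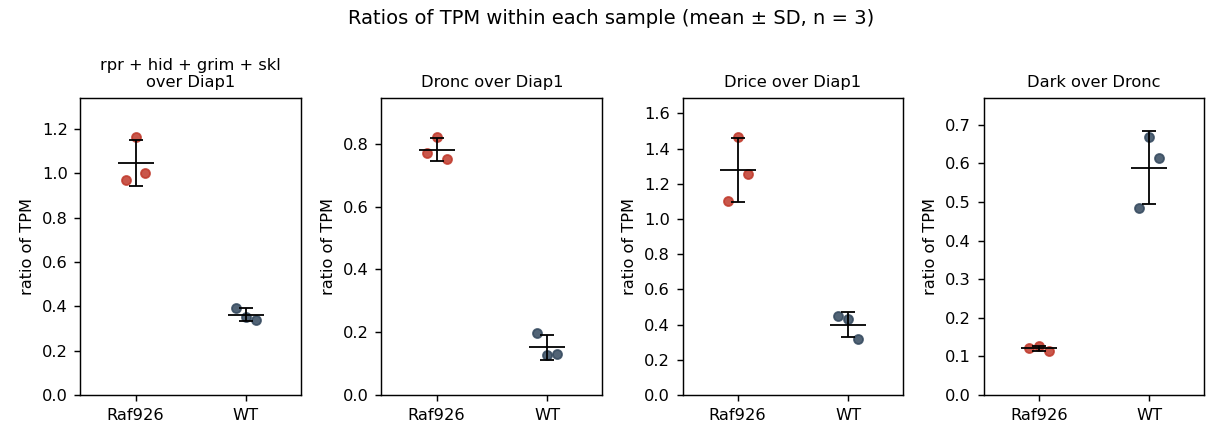
Ratios of TPM within each sample, with a point per sample, *Raf926* left and WT right, and the mean and SD of 3 samples; each vertical axis starts at 0. The genotypes are separate in all 4 ratios, with the antagonist sum over *Diap1* between 0.971 and 1.17 in *Raf926* samples and between 0.336 and 0.394 in WT samples.

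Other genes were read from 8 lists holding 54 genes, all of them tested. The lists cover more of the cell death pathway, regulators of the transcription of its genes, and EGFR/MAPK targets. Of the 54 genes, 13 were called higher and 15 lower, and their median log2 fold change was 0.04. These counts include the 10 regulators (2 higher, 4 lower) and the 6 EGFR/MAPK targets (none higher, 4 lower). The share called, 51.9%, was near the 49.7% of all genes. Among the other caspases, *Strica*, which has a long prodomain, was higher (log2 fold change 1.16 ± 0.17, SE), and *Decay* (−1.90) and *Damm* (−2.07) were lower. The last of these had few counts, at most 23.3 normalized counts in *Raf926* samples. *Dcp-1*, the other effector caspase gene, was not called, with a log2 fold change of 0.37 (adjusted p = 0.031), nor was *Dredd* (−0.50, adjusted p = 0.024), both from edgeR's quasi-likelihood test. None of the other inhibitor genes *Diap2*, *Bruce* and *Det* was called, at −0.10, −0.42 and −0.04, although *Bruce* had an adjusted p of 0.011 in the same test and 1 of the 3 was called lower with library size alone.

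Genes of the Bcl-2 family and of mitochondria held 3 called higher of 7 and none lower, against 22.7% and 26.9% of all genes. The Bcl-2 family genes *Debcl* and *Buffy* had log2 fold changes of 1.12 and 0.87 and *BI-1*, the Bax inhibitor gene, one of 0.62. *Debcl* was the firmest of them, at 904 ± 175 normalized counts in *Raf926* embryos and 416 ± 20.8 in WT embryos (SD, n = 3 each). *Debcl* alone was called without WT replicate 2 (*Buffy* 0.63, *BI-1* 0.57) and with library size alone (0.66 and 0.42), and *Buffy* also lost its call without *Raf926* replicate 3 (0.79) and without WT replicate 1 (0.79). The cytochrome c gene *Cyt-c-p* was at −0.15. Of the TNF ligand, receptor and adaptor genes, 2 of 5 were lower and none higher, to be read against the same shares. *wgn*, a TNF receptor gene, was at 261, 181 and 182 normalized counts in the *Raf926* replicates and at 1166, 1434 and 1712 in the WT replicates (log2 fold change −2.79), and the adaptor gene *Traf4* was at −1.61. The ligand gene *egr* (0.15) and the other receptor gene *grnd* (−0.02) were not called.

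Of 9 genes of DNA damage signaling and the p53 path, 4 were higher and 1 lower, against 22.7% and 26.9% of all genes. *Xrp1*, a bZIP gene that p53 can activate, had 15740 ± 792 normalized counts in *Raf926* embryos and 6674 ± 1888 in WT embryos (SD, n = 3 each), higher by 1.24 on the log2 scale. *Irbp18*, the gene of its dimer partner, was at 1.41. *lok*, the Chk2 kinase gene, was at 0.69 and *Irbp*, a Ku subunit gene, at 0.62. The call of *lok* was lost without WT replicate 3 (0.49), and that of *Irbp* without WT replicate 3 (0.50), WT replicate 1 (0.52) or *Raf926* replicate 3 (0.54). Both were lost with library size alone and with upper-quartile scaling, which left 2 genes called higher. *mei-41*, the ATR kinase gene, was lower, with a log2 fold change of −1.40 ± 0.19 (SE).

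The late steps of cell death held the widest changes of the 8 lists. Of 9 genes of DNA fragmentation and engulfment, 3 were higher and 2 lower, against 22.7% and 26.9% of all genes. *Drep1*, which encodes the inhibitor of the caspase-activated nuclease, was at 5617, 6857 and 6426 normalized counts in the *Raf926* replicates, against 491, 367 and 448 in the WT replicates. On the log2 scale it was higher by 3.85 ± 0.15 (SE), with an adjusted p of 8.3e-06 (edgeR's quasi-likelihood test). The nuclease gene *Drep4* was not called, at 0.36. *DNaseII*, the lysosomal nuclease gene, was at 129, 158 and 112 normalized counts in the *Raf926* replicates and at 1886, 1989 and 1965 in the WT replicates, a log2 fold change of −3.87 ± 0.17 (SE). Of the engulfment genes, *ced-6*, the adaptor gene, was 2.46-fold higher. The receptor gene *crq* was also higher (0.64), but not without WT replicate 3 (0.53), with library size alone (0.45) or with upper-quartile scaling (0.49). *NimC4*, the receptor gene for dying cells in macrophages and glia, was lower (−1.27), and *drpr*, the Draper gene, was not called (0.39). *crq* is also among the hemocyte markers.

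Of 10 regulators known to act on the transcription of these genes in *Drosophila*, 2 were higher and 4 lower, against 22.7% and 26.9% of all genes. *Abd-B* and *Dfd*, Hox genes that activate *rpr*, had log2 fold changes of −1.88 and −1.23. *abd-A*, which acts in neuroblast death, was at −0.66 and was not called without *Raf926* replicate 2 (−0.46) or WT replicate 3 (−0.55). *sd*, the gene of the DNA-binding partner of Yorkie upstream of *Diap1*, was at −0.73 and was not called without *Raf926* replicate 2 (−0.56), and *yki* itself was not called (−0.36). *br*, of the ecdysone response, was at 1.46. *Stat92E*, which also acts on *Diap1*, was at 0.76 (0.57, not called, with library size alone). *EcR* (0.57), *E2f1* (−0.58) and *grh* (−0.13) were not called.

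**Figure D5:**
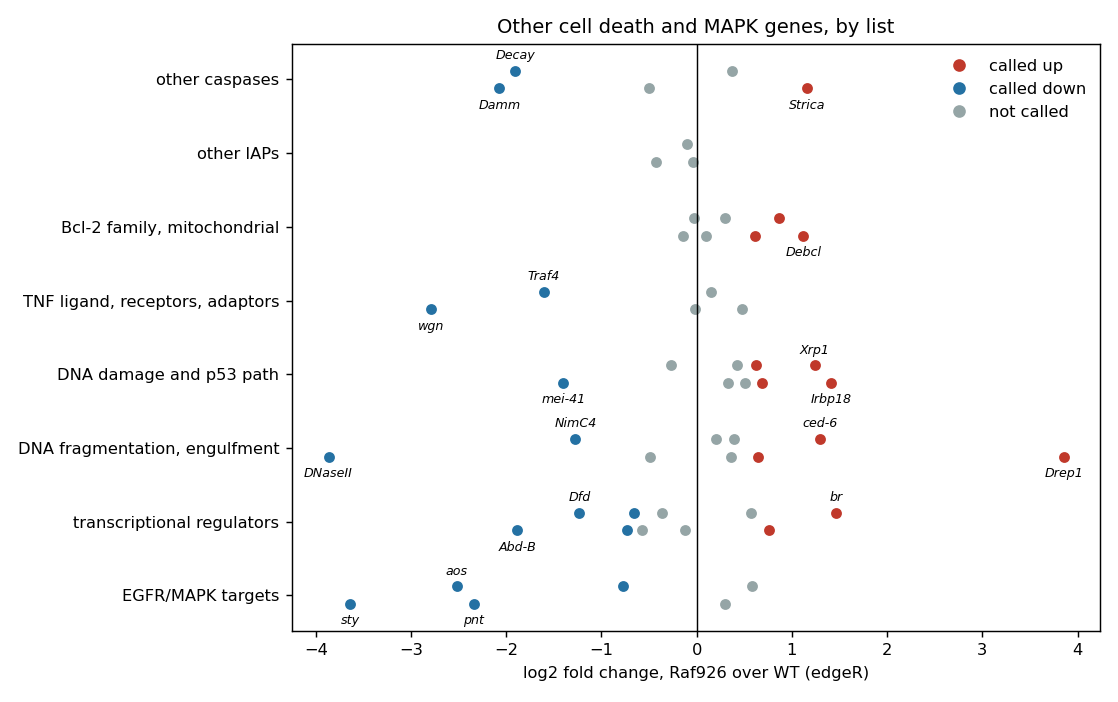
The log2 fold change, *Raf926* over WT, of every gene of the 8 lists, with a point per gene and the larger changes named; colors mark genes called higher or lower. *Drep1* (3.85) and *DNaseII* (−3.87) stand at the ends, the EGFR/MAPK targets *sty*, *aos* and *pnt* lie far to the low side, and the other IAP genes (inhibitors of apoptosis) lie between −0.42 and −0.04.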

How the data were processed

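RNA of 6 embryo samples was sequenced, 3 per genotype. Per the labels and the methods, the authors aligned the reads to BDGP6.22 (Ensembl 97) with STAR 2.7.1a and used RSEM 1.3.1. The authors deposited, per sample and gene, the expected count (unnormalized), TPM and FPKM (FPKM not used) and mean transcript lengths, in 17714 genes. Of the expected counts 11.5% were not whole, and they were rounded.

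Symbols and coordinates came from BDGP6.54, a later annotation, which matched 17587 identifiers. As in the study, 390 rRNA, snoRNA and snRNA genes and genes under a mean of 10 counts were removed, leaving 11568. The test was edgeR's quasi-likelihood test (edgeR 4.0.16, R 4.3.3, TMM, Benjamini-Hochberg) in place of the study's DESeq2 Wald test, an alternative here (DESeq2 1.42.0). The standard error is the log2 fold change over the square root of F.

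A floor of 3 counts was 0.0787 to 0.0902 CPM. Without molecular identifiers, intervals cover no amplification error. Genes named are the 9 members, *Raf*, and up to 3 called genes per list and direction, with others added after their values were seen. Members and lists were chosen with earlier results of these data known. Promoter and protein sequences were not used here. Figures used matplotlib 3.10.9.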

Additional observations from a re-analysis of the deposited data

How the results depend on the processing

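The 9 cell death genes were refitted under 17 alternatives each (other scalings, the DESeq2 Wald test, other filters and thresholds, the replicate block, each sample left out). Of these 153 fits, 146 gave the same direction and the same call, 3 lost a call, 4 gained one and 0 reversed. *Drice* was not called with library size alone (0.52), with upper-quartile scaling (0.55) or with a test against the 1.5-fold change (0.71, adjusted p = 0.15, glmTreat in edgeR). Without a fold change threshold *hid* (0.27) and *p53* (0.57) were called. With each sample left out, the log2 fold change of *p53* was between 0.49 and 0.62. Over all genes 5747 were called, 45.8% of them higher, but 33.9% with library size alone and 36.1% with upper-quartile scaling.

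Same-numbered samples did not deviate together (correlations across genes between −0.20 and −0.04). Differently numbered samples had correlations between −0.0743 and 0.195. With deviations taken within 3 samples per genotype, these values cannot tell whether samples were prepared in numbered pairs. In the fit with a replicate block, 5493 genes were called, the log2 fold changes were 1.26 for *skl*, −0.95 for *Diap1*, 1.43 for *Dronc*, 0.72 for *Drice* and −0.84 for *Dark*, and the block changed no call among the 9 genes.

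Depth did not limit the 9 genes, which held at least 266 expected counts in every sample. The 95% intervals of *rpr*, *hid* and *grim* include 0, and that of *hid* ends at a fold change of 1.47, just under the 1.5-fold limit. This bound is that of the main fit alone. With single samples left out, the log2 fold change of *hid* lay between 0.195 and 0.378, so the bound does not exclude a 1.5-fold change.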
